A study of Mus musculus with 24 samples.

Results

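Ion channel subunits were followed in TM3 cells, a mouse Leydig cell line from the testis, after exposure to a nanosecond pulsed electric field (nsPEF). The members were the genes whose symbols name a potassium (Kcn), sodium (Scn), calcium (Cacn) or hyperpolarization-activated (Hcn) channel subunit, and they were chosen by symbol alone. They comprised 136 genes with 230 probes, out of 23787 genes with a symbol and 56605 probes on the array. Of the 230 probes, 46 (34 genes) were well above background on all 24 arrays and are called bright here. A further 57 passed the background on 2 or more arrays of a single group of 4 and were tested as dim probes, so that 103 probes of 74 genes entered the tests. The remaining 127 probes were too dim to be tested.

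The 6 groups held 4 biological replicates each, 1 array per replicate. Sham cells were collected at 0 h (S0), 4 h (S4) and 24 h (S24), and nsPEF cells at the same times (E0, E4 and E24). The nsPEF cells received 80 pulses of 60 ns at 14 kV/cm over 180 s, while suspended in a cuvette, and sham cells were handled in the same way without pulses. All groups were thus cells of 1 line that had been detached, washed and resuspended. Each level below is the log2 signal of a probe minus the 75th percentile of its array, so that a level above 0 lies above that percentile. Levels of different probes cannot be set against each other, because probes differ in how they bind. A difference was called at an adjusted p under 0.05 in limma, adjusted over all 37684 tested probes.

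Potassium channels let K+ leave the cell and hold the membrane potential negative. Voltage-gated sodium and calcium channels open when the membrane depolarizes, and calcium entry then acts as a signal. Most channels pair a pore-forming subunit with auxiliary subunits that set its gating or its transport to the membrane. Leydig cells respond to luteinizing hormone with testosterone synthesis, and calcium entry through T-type channels and potassium conductances are known to take part in that response.

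The labelled cell type was checked on marker genes. Of 6 Leydig cell markers with a probe, Star, Cyp17a1 and Nr5a1 were bright, whereas Cyp11a1 and Lhcgr, the side-chain cleavage enzyme and the luteinizing hormone receptor, were not well above background on any array. Of 6 fibroblast genes, Col1a1, Col1a2, Pdgfra, Pdgfrb and Vim were bright, and Thy1 passed the background on 0 arrays. Of 5 Sertoli cell genes, Sox9 and Rhox5 were bright, Amh and Cldn11 were too dim to be tested, and Gata1 passed on 0 arrays. Of 5 neuronal genes, Snap25 and Tubb3 were bright, Rbfox3 and Stmn2 were not, and Syt1 passed on 0 arrays. Between 51.2% and 62.1% of probes were well above background on an array, and channel probes above background numbered 67 to 92 per array. The nsPEF arrays had fewer such probes than the sham arrays, with means of 54.8%, 54.0% and 55.3% at 0, 4 and 24 h against 58.8%, 59.4% and 59.9% in sham cells. Probes with no target in the mouse read higher on the nsPEF arrays, at -6.50 against -7.05, -6.18 against -7.15 and -6.26 against -7.06 at the 3 times. Each time point had its own slide, on which sham arrays filled the first row and nsPEF arrays the second. Time and slide, and treatment and place on the slide, cannot be told apart.

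Promoter sequences are shown for 3 members with large changes at 4 h, and only those that hold a match to a motif searched. RefSeq gave 135 promoters for 99 of the 136 genes, each from 250 bases before to 50 after a transcript start (GRCm38.p6). A motif search on both strands looked for the AP-1 site TGANTCA, the cAMP response element TGACGTCA and the E-box CACGTG, and a match is a description of the letters only. Capitals mark a match in the lines that follow. The Kcnn4 promoter lies at chr7:24370013-24370312 on the plus strand and holds an E-box whose first base is at position -133. The Kcnk2 promoter shown is the second of 4 in the table, at chr1:189344143-189344442 on the minus strand, with an AP-1 site at -126. The Kcnip3 promoter shown is the first of 3, at chr2:127522045-127522344 on the minus strand, with an AP-1 site at -122. The other 3 Kcnk2 and 2 Kcnip3 promoters, and that of Scn10a, which also changed at 4 h, held no match and are not shown.
Kcnn4: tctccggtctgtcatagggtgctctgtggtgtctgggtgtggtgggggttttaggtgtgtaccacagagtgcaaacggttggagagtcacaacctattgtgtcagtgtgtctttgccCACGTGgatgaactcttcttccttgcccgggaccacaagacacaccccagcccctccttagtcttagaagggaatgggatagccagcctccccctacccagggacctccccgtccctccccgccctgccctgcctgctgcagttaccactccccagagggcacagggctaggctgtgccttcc
Kcnk2: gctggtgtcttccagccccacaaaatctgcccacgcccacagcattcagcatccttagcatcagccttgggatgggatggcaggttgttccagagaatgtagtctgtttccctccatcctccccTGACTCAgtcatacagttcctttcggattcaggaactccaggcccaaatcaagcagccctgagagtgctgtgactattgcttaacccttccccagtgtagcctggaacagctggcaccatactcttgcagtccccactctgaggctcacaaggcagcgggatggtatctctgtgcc
Kcnip3: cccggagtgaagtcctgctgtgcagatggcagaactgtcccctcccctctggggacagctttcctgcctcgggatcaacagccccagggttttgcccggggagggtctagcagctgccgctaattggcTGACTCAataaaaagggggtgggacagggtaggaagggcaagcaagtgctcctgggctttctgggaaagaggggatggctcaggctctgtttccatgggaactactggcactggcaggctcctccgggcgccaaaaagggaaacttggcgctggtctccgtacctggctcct

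The AP-1 letters were found in 5 of the 135 channel promoters (3.70%), and in 7.81% of all 32851 promoters of the same length. The E-box letters were found in 7 channel promoters (5.19%), against 7.15% of all promoters. The cAMP response element was found in 0 of the 135, against 1.79% of all. For Cacna1g, Cacna1a, Kcnj14 and Kcnab3, which are described below, no promoter is shown.

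Detection differed between the roles. Calcium channel pore-forming subunits had 13 bright probes among 24, which covered the P/Q-type Cacna1a, the N-type Cacna1b, the L-type Cacna1c and the T-type Cacna1g, Cacna1h and Cacna1i. Calcium channel auxiliary subunits had 6 among 23, namely Cacna2d2, Cacnb1, Cacnb3, Cacng7 with 2 probes, and Cacng8. Potassium channel auxiliary subunits had 6 bright probes among 22 (Kcnab1, Kcnab3, Kcnip1 and 3 probes of Kcnip3). Voltage-gated potassium channels formed the largest role, with 66 probes of 40 genes, of which 9 probes were bright (among them Kcna7, Kcnd1, Kcng2, 2 probes of Kcnh2, Kcnh3, Kcnh6 and Kcnv2). Tandem-pore potassium channels, which carry background K+ current, had 4 bright probes among 18 (Kcnk4, Kcnk5, Kcnk15 and Kcnk16). The bright probes of the remaining roles belonged to Kcnn1, Kcnn4, Kcnj14, Kcnj15, Scn4a, Scn8a and Hcn2. No sodium channel auxiliary subunit was bright, and 3 of the 6 probes of that role were tested.

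**Figure D1:**
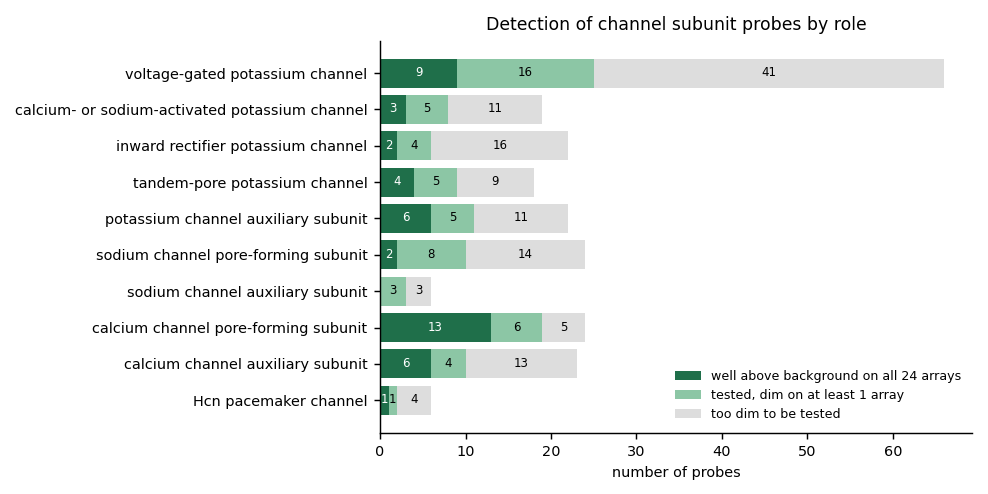
Number of probes in each role of the 230 channel subunit probes, split into those well above background on all 24 arrays, those tested but dim on at least 1 array, and those too dim to be tested. Calcium channel pore-forming subunits had 13 bright probes of 24, and voltage-gated potassium channels 9 of 66.

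A total of 62 of the 136 genes had no tested probe, and 28 of these were not well above background on any array. Among the latter were the delayed rectifiers Kcna1, Kcna2, Kcna5 and Kcnb2, the A-type subunit Kcnd2, the R-type calcium channel Cacna1e, the small-conductance channel Kcnn2, and Cacng1 to Cacng4. The other 34 genes passed on some arrays without reaching 2 of 4 in any group, among them Kcnq1, Kcnj2, Kcnj11, Scn9a, Cacna1f and Hcn3. Just outside the bright class, 6 probes were counted as above background on 23 of the 24 arrays, among them those of Cacng6, Kcnc4, Kcnd3 and Kcnh4 (2 probes). A spot left out as marked counted as not above background, which was the case for Kcnc4 on its 1 missing array. A signal that is not above background sets only an upper limit on the transcript.

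Sham cells at 4 h were set against sham cells at 0 h, neither of which had received a pulse. The comparison sets cells after 4 h in culture against cells taken right after detachment and handling. It also sets one slide against another, and these cannot be told apart. Of the 103 tested channel probes 49 were called, 14 higher and 35 lower, and their median difference was -0.26. Over all tested probes 59.1% were called, 29.4% higher and 29.7% lower, with a median of -0.0060. These are levels in bulk RNA, in which fewer cells of a type and less transcript per cell cannot be told apart. The called share of the channel probes was thus below the background, while their calls lay more to the lower side. Taking the percentile over probes detected on all arrays gave 8 higher and 41 lower, and background subtraction by normexp gave 8 and 45. Under these settings the median of all tested probes moved lower as well, to -0.12 and -0.16. Among the 46 bright probes 7 were higher and 21 lower, where 69.6% of all bright probes were called, 35.9% higher and 33.8% lower.

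Kcnn4, the intermediate-conductance calcium-activated potassium channel, had the largest rise of all channel genes at 4 h on each of its 3 probes. On its bright probe (A_55_P2802751) the sham levels at 0 h were -3.41, -3.47, -3.52 and -3.77, and at 4 h they were 1.10, 1.32, 1.02 and 1.22. At 24 h they stood at -2.79, -2.78, -2.77 and -2.50. All 4 arrays at 4 h lay above every array at the other times, and the arrays at 24 h lay a little above those at 0 h. The rise at 4 h was 4.71 ± 0.25 log2 (SE, 26.1-fold, adjusted p = 2.07e-12 by limma), and at 24 h the difference from 0 h was 0.83 ± 0.25 (adjusted p = 0.0146). The call at 24 h was lost with normexp (0.359). The other 2 probes were not well above background on any array at 0 h but were on all 8 arrays at 4 h. Their fitted rises were 4.93 ± 0.24 (A_51_P389636, at least 11.0-fold) and 3.74 ± 0.30 (A_55_P2741028, at least 4.95-fold), where the bound sets the 4 h level against the dimmest signal above background. Neither probe was above background on a sham array at 24 h.

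In nsPEF cells the bright Kcnn4 probe read -3.57, -3.10, -3.86 and -1.95 at 0 h, 0.82, 1.08, 1.13 and 1.15 at 4 h, with -2.41, -2.20, -2.68 and -2.51 at 24 h. Replicate 4 at 0 h stood above the other 3, and the arrays at 4 h again lay above all the rest. The rise to 4 h was 4.17 ± 0.25 (adjusted p = 1.33e-11). At 4 h the nsPEF and sham arrays overlapped, with a difference of -0.12 ± 0.25 (adjusted p = 0.830), and the interaction of treatment with time was not called (adjusted p = 0.603).

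Kcnk2, a stretch-sensitive tandem-pore channel, was the only tandem-pore gene called higher in sham cells at 4 h. Its probe was well above background on all 4 arrays of each sham group. Its levels were -3.94, -4.13, -3.75 and -4.45 at 0 h, -1.77, -1.86, -2.01 and -1.84 at 4 h, with -3.33, -2.88, -3.11 and -3.01 at 24 h. The 3 sets of arrays did not overlap, and those at 24 h lay between the other two. The differences were 2.20 ± 0.16 at 4 h (4.59-fold, adjusted p = 1.74e-10) and 0.98 ± 0.16 at 24 h (adjusted p = 5.74e-05, and 0.439 with normexp).

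Kcnj14, an inward rectifier, and Kcnab3, a beta subunit of voltage-gated potassium channels, rose by similar amounts. The bright Kcnj14 probe read -1.85, -1.98, -2.08 and -2.02 in sham cells at 0 h and -0.70, -0.46, -0.86 and -0.58 at 4 h, with no overlap. Its difference was 1.33 ± 0.12 (2.52-fold, adjusted p = 3.02e-09), whereas its dim probe differed by -0.26 ± 0.62 (adjusted p = 0.751) and was not above background on any sham array at those times. For Kcnab3 the 0 h levels were -2.93, -2.74, -2.81 and -2.66, and the 4 h levels were -1.57, -1.39, -1.44 and -1.44. The groups were apart, with a difference of 1.32 ± 0.11 (2.50-fold, adjusted p = 1.40e-09). At 24 h Kcnab3 was still higher by 0.51 ± 0.11 (adjusted p = 0.000976, and 0.315 with normexp). Smaller rises were called for the inward rectifier Kcnj15 (0.48), the alpha-2/delta subunit Cacna2d2 (0.52) and the voltage-gated Kcna7 (0.34).

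**Figure D2:**
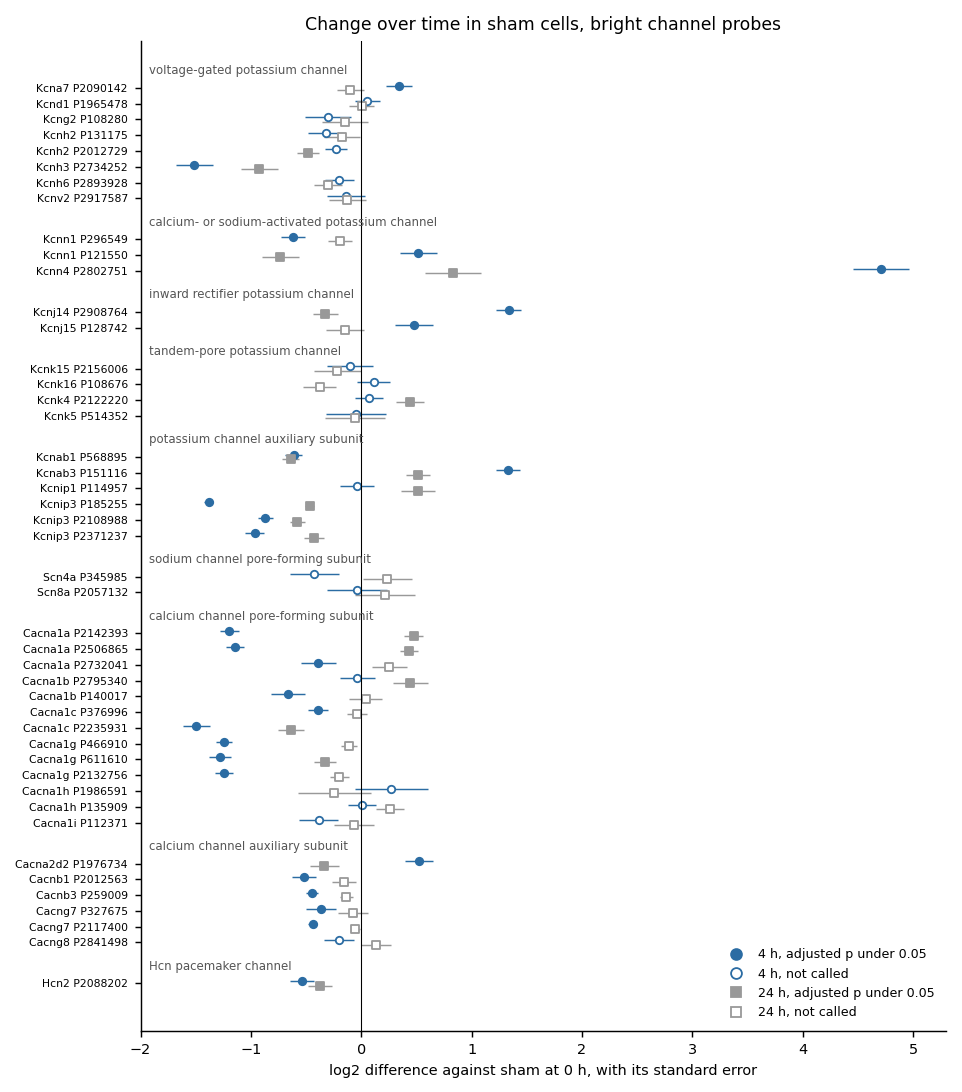
Difference of the bright channel probes listed, in sham cells at 4 h (circles) and 24 h (squares) from sham cells at 0 h, in log2 with its standard error as a bar, grouped by role, with filled symbols for an adjusted p under 0.05. Kcnn4 stands at 4.71 at 4 h, and the 9 called calcium channel pore-forming probes lie below 0 at 4 h.

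Of the 19 tested probes of calcium channel pore-forming subunits 9 were called lower at 4 h and 10 were not called. Those called were all among the 13 bright probes, of which 9 were lower and 0 higher, with a median difference of -0.66, where 33.8% of all bright probes were lower and 35.9% higher, and of the 6 dim tested probes 0 were called, where 39.1% of all dim tested probes were. Cacna1g, the T-type subunit, fell on each of its 3 probes, by 1.24 ± 0.07, 1.28 ± 0.10 and 1.24 ± 0.08 log2. On probe A_55_P2132756 the sham levels were 2.44, 2.42, 2.69 and 2.57 at 0 h, 1.24, 1.27, 1.23 and 1.41 at 4 h, with 2.24, 2.34, 2.28 and 2.47 at 24 h. The arrays at 4 h lay below all others, while the arrays at 0 h and 24 h overlapped. At 24 h the 3 Cacna1g probes differed from 0 h by -0.11 ± 0.07, -0.33 ± 0.10 and -0.20 ± 0.08, of which the second was called (adjusted p = 0.0158).

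Cacna1c, the pore of the L-type channel, was measured by 2 bright and 2 dim probes. On A_55_P2235931 the sham levels were 0.38, 0.50, 0.35 and 0.57 at 0 h, -1.01, -1.11, -1.17 and -0.89 at 4 h, with -0.15, -0.31, -0.13 and -0.17 at 24 h. The 3 times did not overlap, and 24 h lay in between. The falls were 1.49 ± 0.12 at 4 h (2.81-fold, adjusted p = 9.17e-10) and 0.64 ± 0.12 at 24 h (adjusted p = 0.000283). The other bright probe (A_51_P376996) fell by 0.39 ± 0.09 at 4 h (adjusted p = 0.000734) and was not called at 24 h, at -0.04 ± 0.09. The 2 dim probes differed by -0.52 ± 0.31 and -0.88 ± 0.43 at 4 h and were not called, although their sham arrays at 4 h all lay below those at 0 h.

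Cacna1a, the P/Q-type pore, was lower at 4 h and higher at 24 h than at 0 h. On A_55_P2142393 the sham levels were -0.37, -0.18, -0.64 and -0.46 at 0 h, -1.71, -1.62, -1.62 and -1.48 at 4 h, with 0.02, -0.04, 0.12 and 0.16 at 24 h. No array of 1 time overlapped with another time. The differences were -1.20 ± 0.09 at 4 h (adjusted p = 2.03e-10) and 0.48 ± 0.09 at 24 h (adjusted p = 0.000227), and a second probe gave -1.15 ± 0.08 and 0.43 ± 0.08. Probe A_55_P2732041 gave -0.39 ± 0.16 (adjusted p = 0.0393) and 0.25 ± 0.16 (adjusted p = 0.228). The call of this last probe at 4 h was lost without S0 replicate 1 (adjusted p = 0.0755), 2 (0.0577) or 3 (0.119), and without S4 replicate 1 (0.0691), 2 (0.0785), 3 (0.0509) or 4 (0.0610). Cacna1b, the N-type pore, fell on A_66_P140017 by 0.66 ± 0.15 at 4 h, whereas its other bright probe differed by -0.04 ± 0.16.

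Auxiliary calcium channel subunits fell on 4 of 6 bright probes at 4 h and rose on 1, beside 33.8% lower and 35.9% higher among all bright probes, and of their 4 dim tested probes 1 was lower and 3 were not called. Cacnb1 and Cacnb3, beta subunits that bring the pore to the membrane, fell by 0.52 and 0.45. Cacng7, a member of the gamma family that also regulates AMPA receptors, fell by 0.36 and 0.44 on its 2 probes. Hcn2, a pacemaker channel, fell from 4.58, 4.35, 4.44 and 4.18 to 3.84, 3.94, 3.90 and 3.71. Its 4 h arrays all lay below the 0 h arrays, by 0.54 ± 0.11 on average (adjusted p = 0.000294).

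Kcnip3, which binds A-type potassium channels and is also known as the calcium-dependent transcriptional repressor DREAM, fell on all 3 of its bright probes. On A_52_P185255 the sham levels were -0.25, -0.32, -0.31 and -0.43 at 0 h, -1.73, -1.69, -1.71 and -1.70 at 4 h, with -0.79, -0.75, -0.84 and -0.79 at 24 h. The 3 times were well apart, with the 24 h arrays in between. The falls on this probe were 1.38 ± 0.04 at 4 h (2.61-fold, adjusted p = 1.96e-16) and 0.47 ± 0.04 at 24 h (adjusted p = 2.45e-08). The other 2 probes fell by 0.87 ± 0.07 and 0.97 ± 0.09 at 4 h, and by 0.58 ± 0.07 and 0.43 ± 0.09 at 24 h. Kcnab1, a beta subunit like Kcnab3, fell by 0.61 ± 0.08 at 4 h and 0.64 ± 0.08 at 24 h.

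Kcnh3, a voltage-gated channel of the ether-a-go-go family, had the largest fall among bright probes at 4 h. Its sham levels were 0.37, 0.27, 0.38 and 0.42 at 0 h, -0.99, -1.02, -0.83 and -1.77 at 4 h, with -0.23, -0.78, -0.69 and -0.55 at 24 h. Every later array lay below the 0 h arrays, and replicate 4 at 4 h was the lowest. The falls were 1.51 ± 0.17 (adjusted p = 9.99e-08) and 0.92 ± 0.17 (adjusted p = 0.000185). Kcnh2, the hERG channel of the same family, was not called on either probe at 4 h (-0.32 and -0.23), and 1 of its 2 probes was called lower at 24 h (-0.48).

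Kcnn1, a small-conductance calcium-activated channel, gave opposite calls on its 2 bright probes at 4 h, the only such gene among the 9 with at least 2 bright probes. Probe A_51_P296549 went from -2.68, -2.70, -2.83 and -2.86 at 0 h to -3.24, -3.33, -3.24 and -3.72 at 4 h. Probe A_66_P121550 went from -2.95, -3.26, -3.12 and -3.15 to -2.48, -2.77, -2.60 and -2.57. The arrays of the 2 times were apart on both probes, in opposite directions. The differences were -0.62 ± 0.11 (adjusted p = 5.67e-05) and 0.52 ± 0.17 (adjusted p = 0.0122). The rise was not called with the percentile over detected probes or with normexp (up to 0.801), so that the opposite calls depended on the processing.

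Of the 10 tested sodium channel pore-forming probes 4 were called lower at 4 h and 0 higher, and those 4 were all dim (22.1% of all dim tested probes were called lower). Scn10a, the tetrodotoxin-resistant channel of sensory neurons, read -2.37, -2.48, -2.40 and -2.29 on A_55_P2109397 at 0 h, -3.99, -3.60, -4.05 and -3.84 at 4 h, with -4.58, -4.27, -4.90 and -4.27 at 24 h. Each later set of sham arrays lay below the one before, and the falls were 1.48 ± 0.26 and 2.12 ± 0.26 (adjusted p = 4.34e-05 and 2.08e-06). Its other probe, A_52_P616425, fell by 1.43 ± 0.19 at 4 h but was not called at 24 h, at -0.17 ± 0.19. Scn3a, a brain-type channel, read -2.34, -2.11, -2.57 and -2.19 at 0 h and -4.80, -4.68, -4.25 and -4.70 at 4 h. The groups were apart, and the fall was 2.31 ± 0.44 (4.95-fold, adjusted p = 0.000128). The 2 bright sodium channel probes, Scn4a and Scn8a, were not called (-0.43 and -0.04). Kcnk2, Scn10a and Scn3a were singled out after their values had been seen.

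Dim probes of the A-type subunit Kcnd1 and of the ether-a-go-go channel Kcnh1 fell as well. The dim Kcnd1 probe was above background on all 4 sham arrays at 0 h and on 0 at 4 h, so that its fall was at least 1.56-fold (fitted -2.40 ± 0.29, adjusted p = 5.07e-07). The bright Kcnd1 probe differed by 0.05 ± 0.11 (adjusted p = 0.726) and by -0.06 with the percentile taken over detected probes. Kcnh1 differed by -1.23 ± 0.31 (adjusted p = 0.00211), and its arrays of the 2 times overlapped.

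**Figure D3:**
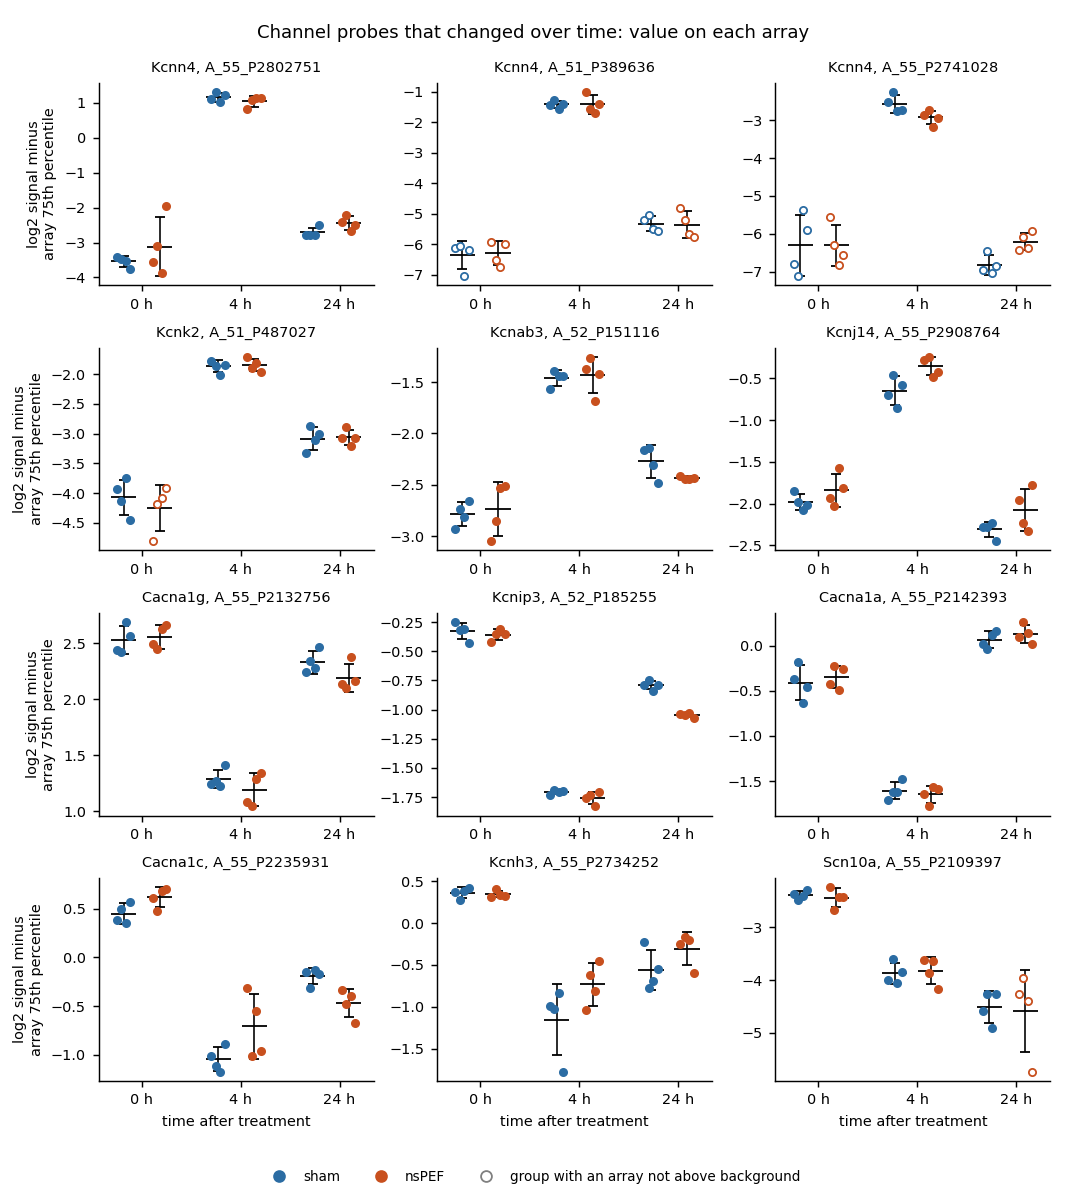
Level on each array (log2 signal minus the 75th percentile of the array) of 12 channel probes in sham (blue) and nsPEF (orange) cells at 0, 4 and 24 h, with the group mean and SD as lines and open circles for a group with an array not above background. Kcnn4 and Kcnk2 are highest at 4 h, and Cacna1g, Kcnip3 and Cacna1a are lowest at 4 h, in both treatments.

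By 24 h, 26 of the 28 bright probes called at 4 h were nearer to their 0 h level than at 4 h, as a count of fitted differences. These probes had been selected for their difference at 4 h, which favours a smaller one at 24 h, and both differences share the S0 arrays. The same count was not taken over all bright probes, so it is not a result about channels. Of the 103 tested probes 25 were called against 0 h, 10 higher and 15 lower, with 36.6% called over all tested probes (16.9% higher, 19.7% lower). Among bright probes 7 were higher and 12 lower, with 44.9% of all bright probes called, 19.9% higher and 25.1% lower. The largest bright rises were those of Kcnn4, Kcnab3, Kcnip1 (0.51) and Cacna1a, and the largest bright falls those of Kcnh3, Kcnn1 on A_66_P121550 (-0.73), Cacna1c, Kcnab1 and Kcnip3. With normexp the rises of Kcnn4, Kcnab3 and Kcnip1 were not called (adjusted p = 0.359, 0.315 and 0.336), whereas that of Cacna1a on A_55_P2142393 was. Kcnj14 was lower by 0.33 ± 0.12 (adjusted p = 0.0321), with its 4 arrays at 24 h (-2.28, -2.28, -2.23 and -2.45) below all 4 at 0 h. Cacna1b rose on A_55_P2795340 by 0.44 ± 0.16 (adjusted p = 0.0332), with overlapping arrays. Its call was lost without S0 replicate 2 (adjusted p = 0.115) or 4 (0.0877), and without S24 replicate 2 (0.0626) or 4 (0.103). Marker genes moved between these times as well. In sham cells 5 of 9 tested fibroblast probes were called lower at 4 h and 7 at 24 h, 4 of 6 muscle probes were higher at 4 h, and all 4 Sertoli and all 3 Leydig probes were lower at 24 h. Their part in the channel differences was not tested.

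The balance of higher and lower calls at 24 h depended on the scaling. Scaling on the spike-in RNA moved the median of all tested probes up by 0.70, and 64 channel probes were then called higher and 1 lower. Under that scaling the values of Cacna1c (A_55_P2235931), Kcnab1 and Kcnip3 (A_55_P2108988) at 24 h turned to 0.06, 0.06 and 0.12, all below that median. Their falls at 24 h are therefore falls relative to the other transcripts. Those of Kcnh3 and of Kcnn1 on A_66_P121550 were not called under that scaling either (adjusted p = 0.24 and 0.851).

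The nsPEF cells were compared with their own 0 h arrays in the same way. At 4 h 60 of the 103 channel probes were called, 29 higher and 31 lower, where 61.3% of all tested probes were called, 33.5% higher and 27.8% lower. At 24 h 42 were called, 27 higher and 15 lower, against 42.2% of all, 23.9% higher and 18.3% lower. With spike-in scaling the calls at 24 h were 61 higher and 5 lower, and with quantile normalization 19 and 21. The median of all tested probes was 0.54 and 0.00064 under these settings, against 0.062 in the main fit. Cacna1g fell at 4 h by 1.38 ± 0.07, 1.35 ± 0.10 and 1.37 ± 0.08 on its 3 probes, and Kcnip3 by 1.40 ± 0.04 on A_52_P185255. Kcnk2 rose by 2.41 ± 0.16. All 4 bright tandem-pore probes were called higher at 24 h in nsPEF cells, namely Kcnk15 (0.87), Kcnk16 (0.80), Kcnk5 (0.74) and Kcnk4 (0.69). In sham cells the same probes differed at 24 h by -0.22, -0.38, -0.06 and 0.44, of which Kcnk4 was called. Cacna1b, called in nsPEF cells at 4 h and 24 h on A_55_P2795340 (0.89 and 1.46), started lower at 0 h than in sham cells, by 0.64 ± 0.16 (adjusted p = 0.123). Each pair of comparisons with 0 h shares its 0 h arrays.

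The nsPEF cells were then compared with sham cells of the same time, which also compares the second row of a slide with the first. At 0 h 0 of the 103 channel probes were called by limma, with 8 at an unadjusted p under 0.05, and 0.127% of all tested probes were called. At 4 h 7 were called, 6 higher and 1 lower, where 3.31% of all tested probes were called, 1.71% higher and 1.60% lower. At 24 h 8 were called, 5 higher and 3 lower, against 4.82% of all, 2.64% higher and 2.18% lower. Some of the higher calls were of dim probes that had entered the tests only through the nsPEF group compared. These were Cacna2d1, Cacng5 and the dim Kcnj14 probe at 4 h, and Kcnn3 at 24 h. For them the filter itself favoured a higher level in nsPEF cells. The interaction of treatment with time was called for 4 channel probes and 0.377% of all tested probes. None of the 4 was called with normexp, and Cacna2d1 was among them. Averaged over the 3 times, 19 were called, 16 higher and 3 lower, where 8.84% of all tested probes were called, 4.39% higher and 4.44% lower. The median difference was 0.085 for the channel probes and -0.0011 for all tested probes. Of 4 tested probes of neuronal markers 2 were called higher on the average, with a median of 0.28. Of 4 Sertoli cell probes 1 was higher (Sox9, 0.35), and of 2 germ cell probes 1 was lower (Ddx4, -0.46). No Leydig, fibroblast or muscle probe was called on the average, although 2 of 9 fibroblast probes (Pdgfra, -0.24, and Pdgfrb, -0.33) were lower at 24 h. The part of these marker differences in the channel differences was not tested. The split was sensitive to scaling, with 5 higher and 7 lower under quantile normalization, 26 and 1 with spike-in scaling, and 6 and 3 once values were centred by array row and signal. The median of all tested probes was then -0.038, 0.091 and -0.011. At 4 h quantile normalization gave 5 higher and 5 lower and spike-in scaling 27 and 1, and at 24 h they gave 3 and 3, and 2 and 3. The medians of all tested probes under them were -0.052 and 0.19 at 4 h, and -0.044 and -0.043 at 24 h.

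Among the 46 bright probes, 7 were called on the average, 5 higher and 2 lower (background 8.26%, 2.40% higher and 5.87% lower). Those higher were Kcnn1 (mean level -2.921), Kcnk15 (-2.992), Kcnk16 (-3.017), Kcnip1 (-2.371) and Kcnj14 (-1.535), and those lower were Kcnab1 (2.563) and Kcnip3 (-0.998). Among all dim tested probes, by contrast, 8.18% were called higher and 1.74% lower. The background shares were not matched for level, and the part of the level in these calls was not tested. All 7 called probes belong to potassium channels, which also make up a large part of the 46 bright probes. By role these hold 9 voltage-gated, 3 calcium- or sodium-activated, 2 inward rectifier, 4 tandem-pore and 6 auxiliary potassium channel probes. Whether the calls favour potassium channels was not tested. Of the 13 bright calcium channel pore-forming probes 0 were called on the average (1 at an unadjusted p under 0.05), with differences from -0.07 to 0.36. Of the 9 bright voltage-gated potassium channel probes 0 were called as well, with 2 at an unadjusted p under 0.05. For none of the 9 genes with at least 2 bright probes were all probes called for the treatment at any time or on the average.

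Kcnn1 showed the largest treatment difference of the bright probes, on A_66_P121550 at 24 h. Its sham levels were -3.71, -4.19, -4.08 and -3.43 and its nsPEF levels -2.40, -2.13, -2.50 and -2.00. Every nsPEF array lay above every sham array, by 1.60 ± 0.17 on average (3.02-fold, adjusted p = 0.000117; exact permutation p = 0.0286, two-sided, the smallest that 4 against 4 arrays can give). At 4 h the groups overlapped and differed by 0.09 ± 0.17 (adjusted p = 0.806), and the interaction was called (adjusted p = 0.00528) but not with normexp (0.189). On the average over the 3 times the difference was 0.54 ± 0.10 (adjusted p = 0.00396). The other bright Kcnn1 probe read -3.06, -3.04, -2.99 and -2.74 in sham cells at 24 h and -2.84, -2.61, -2.92 and -2.56 in nsPEF cells. These groups overlapped, and the difference of 0.23 ± 0.11 was not called (adjusted p = 0.230).

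Kcnk15 and Kcnk16, tandem-pore channels of the TASK and TALK subfamilies, were higher in nsPEF cells. Kcnk15 read -3.46, -3.30, -2.99 and -3.26 in sham cells at 4 h and -2.26, -2.19, -2.22 and -2.42 in nsPEF cells, and at 24 h -3.13, -3.48, -3.50 and -3.35 against -2.66, -2.15, -2.33 and -2.94. The groups were apart at both times. The differences were 0.98 ± 0.21 at 4 h (adjusted p = 0.0172) and 0.84 ± 0.21 at 24 h (adjusted p = 0.0286), and 0.53 ± 0.12 on the average (adjusted p = 0.0143). The call at 4 h was lost without S4 replicate 1 (adjusted p = 0.0527). The call at 24 h was lost without S24 replicate 2 (0.0810) or 3 (0.0815), without E24 replicate 2 (0.105) or 3 (0.0616), and with spike-in scaling or normexp. The average was called without any single array.

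Kcnk16 read -3.54, -3.73, -3.42 and -3.32 in sham cells at 24 h and -2.54, -2.29, -2.55 and -2.52 in nsPEF cells. The groups were apart by 1.03 ± 0.15 (2.04-fold, adjusted p = 0.00120, and 0.0505 with normexp). At 4 h the difference was 0.31 ± 0.15 (adjusted p = 0.245), and the average of 0.39 ± 0.09 was called (adjusted p = 0.0110) but not under quantile normalization or normexp. Its interaction (adjusted p = 0.0329) was lost with normexp, with no filter and with the replicate number as a block (0.0619), and in 11 of the 24 fits that left out 1 array, namely each S0 replicate (up to 0.0677), E0 replicates 1 and 3, S24 replicates 1, 2 and 3 (up to 0.0767), and E24 replicates 2 and 4.

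Kcnip1, which like Kcnip3 binds A-type channels, was higher on the average by 0.39 ± 0.09 (adjusted p = 0.0130). At 4 h its sham levels were -2.67, -2.39, -2.85 and -3.15 and its nsPEF levels -2.44, -2.25, -2.10 and -1.87. The groups overlapped slightly and differed by 0.60 ± 0.15 (adjusted p = 0.0373). This call at 4 h was lost without S4 replicate 1 (adjusted p = 0.0640), 3 (0.0815) or 4 (0.0830), without E4 replicate 3 (0.0882) or 4 (0.111), under quantile normalization and normexp, and with the replicate number as a block (0.0534). The average was not called with normexp (0.0562). The bright Kcnj14 probe was higher on the average by 0.22 ± 0.07 (adjusted p = 0.0410). That call was lost with quantile normalization, marked spots kept, the deposited values, row centring and the replicate number as a block (up to 0.265). It was also lost in 16 of the 24 fits that left out 1 array (up to 0.0691), and it held only without S0 replicate 1, E0 replicate 1 or 2, S4 replicate 2 or 4, E4 replicate 3, or E24 replicate 2 or 3.

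Kcnab1 and 1 probe of Kcnip3 were lower in nsPEF cells. Kcnab1 read 2.46, 2.43, 2.56 and 2.33 in sham cells at 24 h and 2.22, 1.95, 2.12 and 1.95 in nsPEF cells. Kcnip3 on A_52_P185255 read -0.79, -0.75, -0.84 and -0.79 in sham cells and -1.04, -1.05, -1.03 and -1.07 in nsPEF cells. Both genes had all nsPEF arrays below all sham arrays at 24 h. The differences were -0.38 ± 0.08 for Kcnab1 (adjusted p = 0.00992) and -0.26 ± 0.04 for Kcnip3 (adjusted p = 0.00219). On the average they were -0.21 ± 0.04 and -0.11 ± 0.02, and both of these calls were lost with spike-in scaling. The average call was also lost with row centring for Kcnab1, and with normexp or the percentile over detected probes for Kcnip3, whose call at 24 h was lost with normexp. The other 2 Kcnip3 probes differed by -0.01 ± 0.07 and -0.01 ± 0.09 at 24 h, with 0.00 and 0.01 once the percentile was taken over detected probes. Of the Cacna1a probes, A_55_P2732041 was higher at 24 h by 0.63 ± 0.16 (adjusted p = 0.0285), with E24 replicate 1 far above the rest (-1.06, against -1.92, -2.07 and -1.81, and -2.36, -2.50, -2.40 and -2.12 in sham cells). Its call was lost without S24 replicate 1 (0.0654), 2 (0.0891) or 3 (0.0763) or E24 replicate 4 (0.0554), and the other 2 probes differed by 0.07 ± 0.09 and 0.02 ± 0.08, the latter at -0.05 with spike-in scaling. This Cacna1a contrast was singled out after its values had been seen.

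**Figure D4:**
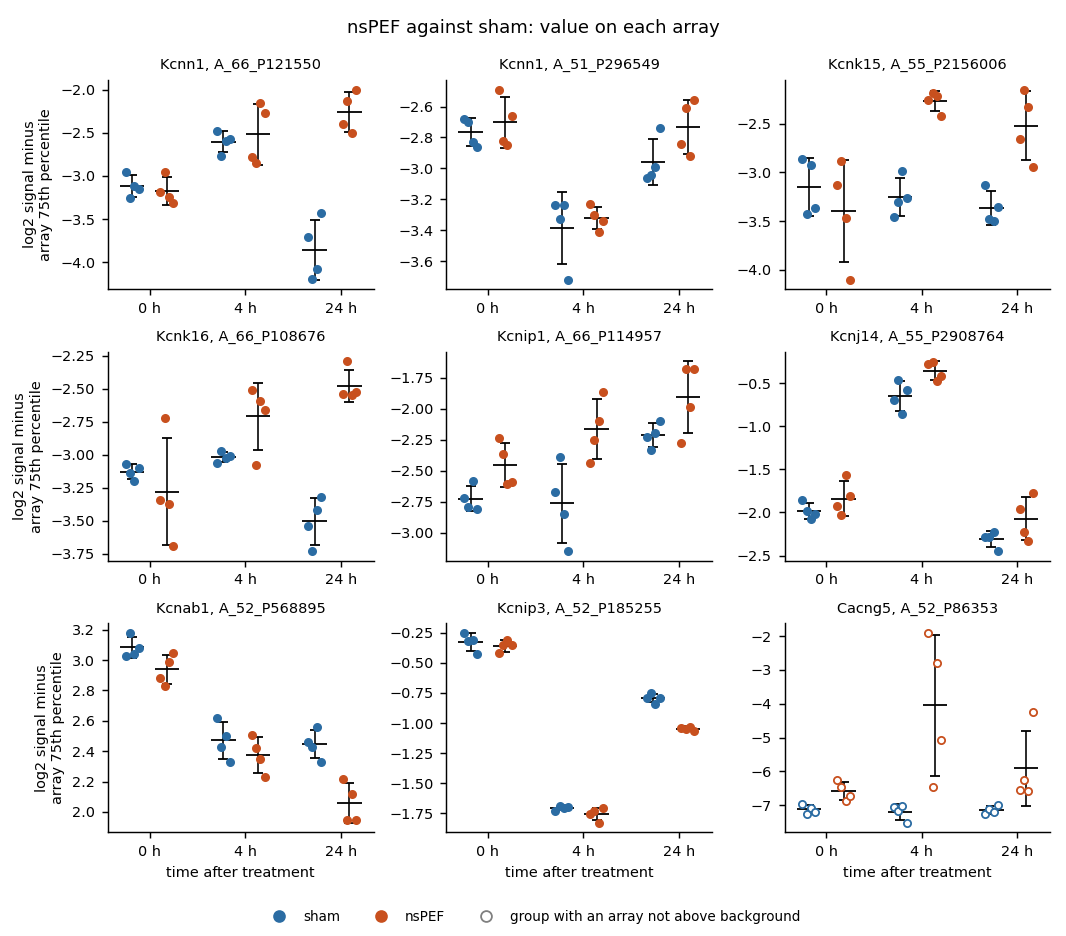
Level on each array (log2 signal minus the 75th percentile of the array) of 9 channel probes in sham (blue) and nsPEF (orange) cells at 0, 4 and 24 h, with the group mean and SD as lines and open circles for a group with an array not above background. Kcnn1 on A_66_P121550 and Kcnk16 are apart at 24 h, Kcnk15 at 4 h and 24 h, and the second Kcnn1 probe overlaps at all 3 times.

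Among the 57 dim tested probes, 12 were called on the average, 11 higher and 1 lower, where 9.92% of all dim tested probes were called, 8.18% higher and 1.74% lower. Of the 11, 6 were above background on at least 2 arrays of a group only among nsPEF groups, so that the filter which admitted them favoured a higher level there. Dim calls varied with the row in which the spot lay. In the first 48 of the 384 rows of spots 20.4% of all dim tested probes were called higher and 6 of 13 channel probes, in the 288 middle rows 6.27% and 5 of 38, and in the last 48 rows 1.39% and 0 of 6. The first rows held Kcnab2, Kcnq5, Kcnc4, Cacng5, Kcnn3 and Kcnh8. Their fitted treatment differences ranged from 0.78 to 2.78 (Kcnab2, in row 1), and Kcnab2, Cacng5, Kcnn3 and Kcnh8 were above background on 0 sham arrays, so that these sizes are not measured folds. The 5 calls in the middle rows included those of Cacna2d1 and Kcna3, described below, of Kcnip4, which was above background on 0 sham arrays, and of the large-conductance calcium-activated channel Kcnma1 (fitted 1.11). The fit had no value for Kcnq5 in E24 replicate 2 and for Kcnc4 in E24 replicate 4, whose spots were marked as outliers. Kcnc4 was above background on all its other arrays and counts as dim only for that marked spot. The part of place on the array in these differences was not tested beyond the row-centred values, under which 9 channel probes were called in place of 19.

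Cacna2d1, an alpha-2/delta subunit that carries calcium channels to the membrane, was called higher at 4 h and had entered the tests only through that nsPEF group. Its probe in row 60 read -7.03, -7.21, -7.03 and -7.54 in sham cells at 4 h and -4.34, -1.11, -2.52 and -4.08 in nsPEF cells. It was above background on 2 nsPEF arrays and 0 sham arrays at 4 h, and on 0 arrays of the other 4 groups. The nsPEF mean lay 3.79-fold above the dimmest signal above background on the sham arrays. That mean includes arrays not above background, so it sets no lower bound on the rise. The fitted rise was 4.19 ± 0.47 (adjusted p = 0.000232), and the interaction was called (adjusted p = 0.0170) but not with normexp or the floor. At 24 h the difference was 0.68 ± 0.47 (adjusted p = 0.406).

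Cacng5, a gamma family subunit in row 4, read -7.04, -7.18, -7.02 and -7.52 in sham cells at 4 h and -1.90, -6.45, -2.78 and -5.07 in nsPEF cells. Replicates 1 and 3 were above background, while replicate 2 lay near the level of probes with no target on these arrays. The probe had entered the tests only through that nsPEF group. The nsPEF mean at 4 h lay 1.85-fold above the dimmest signal above background on the sham arrays. This mean too includes arrays not above background, so it sets no lower bound. The fitted rise was 3.14 ± 0.67 (adjusted p = 0.0161), and it was not called once values were centred by row and signal. At 24 h the difference was 1.23 ± 0.67 (adjusted p = 0.285), with 0 arrays above background. The average of 1.64 ± 0.38 (adjusted p = 0.0152) was not called under quantile normalization, normexp or row centring.

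Kcna3, a lymphocyte delayed rectifier in row 68, was higher on the average by 0.76 ± 0.17 (adjusted p = 0.0131), but not under quantile normalization or row centring (up to 0.194), and was not called at any single time. The dim Kcnj14 probe in row 64 was above background on 3 nsPEF arrays and 0 sham arrays at 4 h, and had entered the tests only through that nsPEF group. Its nsPEF mean lay 2.68-fold above the dimmest signal above background on the sham arrays, which is no lower bound, as an undetected array is included. The fitted rise was 2.62 ± 0.62 (adjusted p = 0.0262). Its call was lost without S4 replicate 1 (0.0703) or E4 replicate 2 (0.0608) or 4 (0.0791), and with row centring. Kcnn3 in row 15 read -6.54, -1.96, -2.37 and -6.06 in nsPEF cells at 24 h and -7.24, -7.09, -7.19 and -5.75 in sham cells. The groups overlapped, and the probe had entered the tests only through E24. Its nsPEF mean lay 1.56-fold above the dimmest signal above background on the sham arrays, again no lower bound. The call (fitted 2.58 ± 0.72, adjusted p = 0.0455) was lost with quantile normalization, spike-in scaling, normexp or row centring. It was also lost in 17 of 22 fits that left out 1 array, namely every S0 and E4 replicate, E0 replicates 1, 2 and 4, S4 replicates 1, 2 and 3, and S24 replicates 1, 2 and 3 (up to 0.114). A second Kcnn3 probe differed by -0.03 ± 0.30, and by 0.13 with normexp. The Kcnn3 and Kcnj14 contrasts were singled out after their values had been seen.

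Lower dim calls were those of Scn10a and Kcnd1. Scn10a on A_52_P616425, in row 371, read -4.26, -4.10, -4.64 and -3.92 in sham cells at 4 h and -5.27, -4.58, -5.77 and -4.93 in nsPEF cells. The groups overlapped slightly, and the probe was above background on 0 nsPEF arrays at 4 h and 3 sham arrays, too close to the dimmest signal above background for a bound on the fold. The fitted difference of -0.91 ± 0.19 (adjusted p = 0.0148) therefore has no measured size, and it turned to 0.03 with normexp and to 0.22 with a floor at the dimmest signal above background. The other Scn10a probe differed by 0.05 ± 0.26. The dim Kcnd1 probe read -4.13, -4.69, -4.47 and -3.32 in sham cells at 24 h and -5.35, -5.87, -4.96 and -5.54 in nsPEF cells. This probe was above background on 0 nsPEF and 3 sham arrays at 24 h, again without a bound on the fold. Its fitted difference of -1.28 ± 0.29 (adjusted p = 0.0191) was lost without E24 replicate 2 (0.0722) or 4 (0.0553) and with normexp, and it turned to 0.06 with the floor. Its interaction (adjusted p = 0.0461) was lost with normexp, the floor or no filter, and in 17 fits that left out 1 array (up to 0.0946), and it held only without E0 replicate 1 or 2, S24 replicate 2, S4 replicate 1, E4 replicate 2, or E24 replicate 1 or 3. The bright Kcnd1 probe differed by 0.15 ± 0.11 at 24 h.

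**Figure D5:**
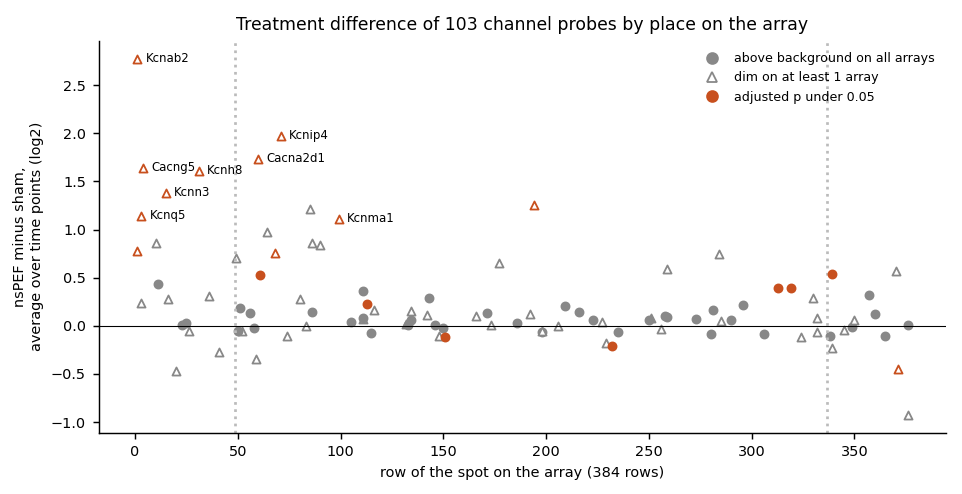
Treatment difference (nsPEF minus sham, log2, averaged over 0, 4 and 24 h) of the 103 tested channel probes against the row of their spot on the array, with circles for bright and triangles for dim probes, orange for an adjusted p under 0.05, and dotted lines at the end of the first 48 and the start of the last 48 rows. The 6 dim calls in the first rows lie between 0.78 and 2.78, and the bright calls between -0.21 and 0.54.

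Genes that work with these channels were read from 2 lists. Of 36 partners and regulators 40 probes were tested, and at 4 h in sham cells 11 were called higher and 10 lower, shares close to the 29.4% and 29.7% of all tested probes, with a median of 0.30 against -0.0060. Rem1, a small GTPase that binds calcium channel beta subunits, rose by 1.43 ± 0.06, and Nedd4l, a ubiquitin ligase that removes sodium channels from the membrane, by 1.46 ± 0.05 and 1.23 ± 0.15 on its 2 bright probes. The proton channel Hvcn1 fell by 1.40 ± 0.05. Fgf11, an intracellular sodium channel partner, fell by 1.46 ± 0.11 and 1.49 ± 0.10 on 2 probes and rose by 0.58 ± 0.23 on another (adjusted p = 0.0350). For the treatment average 5 of the 40 probes were higher and 1 lower, against 4.39% and 4.44% of all tested probes. Catsper4, a sperm calcium channel, was higher by 0.64 ± 0.15 and Dpp6, which escorts A-type potassium channels, by 0.40 ± 0.10 (adjusted p = 0.0146 and 0.0188). A second, dim probe of each gene was not called, at 0.41 ± 0.19 for Catsper4 and 0.34 ± 0.47 for Dpp6 (adjusted p = 0.166 and 0.68).

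Of 34 pumps and exchangers that keep the ion gradients 36 probes were tested, and at 4 h in sham cells 14 were higher and 7 lower, where 29.4% and 29.7% of all tested probes were, with a median of 0.12. The sodium pump beta subunit Atp1b3 rose by 0.87 ± 0.10, 1.16 ± 0.07 and 1.08 ± 0.11 on its 3 probes. The chloride importer Slc12a2 rose by 1.01 ± 0.08. The chloride exporter Slc12a5 fell by 2.14 ± 0.10 and the potassium-dependent sodium-calcium exchanger Slc24a3 by 1.90 ± 0.06. On the treatment average 0 of the 36 pump and exchanger probes were higher and 1 was lower, against 4.39% and 4.44% of all.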

How the data were processed

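Total RNA of TM3 cells (6 groups, 4 biological replicates each) was labelled with Cy3 and hybridised to 24 single-colour Agilent mouse arrays, which the authors scanned and extracted with Agilent Feature Extraction 12.0. The deposited scanner files hold the processed signal intensity of 62976 spots per array, with background already subtracted, of which 59305 were not controls. The authors also deposited a table of log2 values, shifted to the 75th percentile of the array and centred on the median of each probe, which was used only as an alternative. No spot was saturated and no pair of arrays held identical values. The number of arrays limits the precision, and the intensities carry no read depth.

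Probes were named by matching their RefSeq transcript to a RefSeq gene table, which gave a symbol to 34566 of 56605 probes (61.1%). The channel genes and all gene lists were chosen with earlier results of these data known, so no list is independent evidence. Levels were log2 of the processed intensity minus the 75th percentile of the array. Spots marked as not uniform or as outliers were left out and spots of 1 probe averaged, and each probe of a gene was kept apart. Probes well above background on at least 2 of 4 arrays of some group were tested (37684). Group means over all 6 groups were fitted with limma 3.58.1 in R 4.3.3, with Benjamini-Hochberg adjustment over all tested probes and a threshold of 0.05. A ± after a difference is its standard error from the spread shared by all groups. Exact permutation tests of 4 against 4 arrays were two-sided. Where a group had no array above background at a time, a called change is given as a fold beside the fitted value, where that fold exceeded 1. It sets the brighter group's mean against the lowest signal well above background on each array of the dimmer group. It is a lower bound only where every array of the brighter group was above background. The script was tested on simulated data.

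The rule for named genes took every gene with a bright probe, the 5 largest called rises and falls of the treatment average and of sham cells at 4 h and 24 h, the 12 probes with the lowest adjusted p among treatment calls, and Cacng5. Alternatives were quantile normalization, spike-in scaling on 6 probes, the percentile over detected probes, normexp with an offset of 50, a floor, other filters, marked spots kept, the deposited log2 values, the methods' analysis of variance, values centred by rows of spots and signal class, the replicate number as a block, and leaving out each array. The normexp correction was meant for the mean signal and was run on the median signal, which the files hold. A few channel genes and pump genes enter the counts but are not reported here by name.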

Additional observations from a re-analysis of the deposited data

Results flagged for a closer look

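Of 240 groups of 4 arrays over the 40 channel probes described, 12 held an array far from the other 3, where chance gives about 1 in 20. Among bright probes, Kcnk16 in E24 replicate 2 read -2.29 (others -2.55 to -2.52), Kcnn4 on A_55_P2802751 in S24 replicate 4 read -2.50 (others -2.79 to -2.77), Kcnh3 in E24 replicate 4 read -0.60 (others -0.25 to -0.17), and Cacna1c on A_51_P376996 in E0 replicate 4 read -1.12 (others -1.41 to -1.38). Among dim probes, Cacna1c read -4.34 on A_55_P2014154 in S0 replicate 3 (others -4.02 to -3.97) and -5.21 on A_55_P2741079 in S4 replicate 3 (others -4.70 to -4.63). Kcna3 in S4 replicate 3 read -5.19 (others -4.64 to -4.56) and Kcnd1 on A_66_P126157 in S4 replicate 1 read -5.94 (others -7.03 to -6.86). Cacng5 in E24 replicate 4 read -4.25 (others -6.58 to -6.25), Kcnj14 on A_55_P1955522 in E24 replicate 3 read -3.30 (others -6.12 to -5.95), and Kcnn3 on A_51_P508300 in S24 replicate 4 read -5.75 (others -7.24 to -7.09). Kcnn4 on A_51_P389636 in S0 replicate 3 read -7.04 (others -6.20 to -6.05).

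The treatment difference changed with time, by the interaction term of limma, for Kcnn1 on A_66_P121550 (adjusted p = 0.00528), Cacna2d1 (0.0170), Kcnk16 (0.0329) and Kcnd1 on A_66_P126157 (0.0461). These were 4 of the 103 tested channel probes (3.88%), against 0.377% of all tested probes. None of the 4 was called with normexp. Cacna2d1 had entered the tests only through the nsPEF group at 4 h, where it was high. Among fits that left out 1 array, the Kcnk16 call was lost in 11 and the Kcnd1 call in 17. The 2 shares are therefore not a measure of an excess among channels.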

How the results depend on the processing

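Counts of called channel probes moved by over 1.5 times as follows, and the shares of all tested probes called under these settings are not given here. For the treatment average (19), quantile normalization gave 12, the floor 44, no filter 96, bright probes alone 7 and row centring 9. At 0 h (0) the floor gave 1. At 4 h (7), spike-in scaling gave 28, normexp 12, the floor 29, no filter 71 and bright probes alone 2. At 24 h (8), spike-in scaling gave 5, normexp 2, the floor 31 and no filter 53. For the interaction (4), spike-in scaling gave 10, normexp 0 and no filter 2. Bright probes alone gave 29 for sham cells at 4 h (49), and spike-in scaling gave 65 at 24 h (25). In nsPEF cells at 4 h (60), normexp gave 38 and bright probes alone 30, and at 24 h (42) spike-in scaling gave 66, normexp 23 and bright probes alone 27. Fewer or more probes enter with another filter, and for the other settings the cause was not tested. Leaving out 1 array gave 14 to 19 for the average, 0 to 0 at 0 h, 5 to 9 at 4 h, 5 to 11 at 24 h, 2 to 6 for the interaction, 41 to 51 and 20 to 28 in sham cells, and 55 to 63 and 36 to 43 in nsPEF cells.

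Values that changed sign were mostly of probes that had not been called. At 24 h of treatment, Kcnip3 on A_55_P2108988 gave 0.00433 (quantile), 0.00741 (detected probes), 0.00618 (normexp) and 0.00615 (row centring), and Kcnip3 on A_55_P2371237 0.00572 (detected probes), 0.0296 (normexp) and 0.0381 (row centring). Cacna1a on A_55_P2506865 gave -0.0466 (spike-in), -0.0142 (marked spots kept) and -0.0150 (deposited values), Kcnn3 on A_55_P1997554 0.129 (normexp) and 0.780 (floor), and Kcnd1 on A_66_P126157 0.0602 (floor). At 4 h, Kcnn4 gave 0.185 (spike-in), 0.0486 (detected probes) and 0.128 (normexp) on A_51_P389636, 0.0731 (spike-in) on A_55_P2802751 and 0.00140 (normexp) on A_55_P2741028, and Scn10a 0.0270 (normexp) and 0.216 (floor). In sham cells at 24 h, spike-in scaling gave 0.0579 for Cacna1c, 0.0591 for Kcnab1, 0.115 for Kcnip3 and 0.522 for Scn10a, and normexp -0.00604 for Cacna1a on A_55_P2732041. At 4 h the bright Kcnd1 probe gave -0.0639 (detected probes). Without 1 array the sign turned for Kcnip3 (ranges -0.0337 to 0.0301 and -0.0434 to 0.0265), Cacna1a (-0.0377 to 0.0815), Kcnn3 (-0.256 to 0.0826) and Kcnn4 (-0.144 to 0.0848) in these contrasts and for the bright Kcnd1 probe (-0.00487 to 0.131).

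With the replicate number as a block, 18 probes were called on the average, 7 at 4 h, 10 at 24 h, 3 for the interaction, 51 and 28 in sham cells and 61 and 45 in nsPEF cells. None of 60 same-numbered pairs correlated above 0.1 (-0.054 to 0.093), and 13 of 24 arrays correlated best with their own number. Whether the number marks a shared cell suspension is not settled by the labels. With the block, 3 of the calls described were lost, those of Kcnip1 at 4 h (adjusted p = 0.0534), Kcnj14 on the average (0.0539) and the interaction of Kcnk16 (0.0619). The methods' analysis of variance called 18 for treatment and 5 for the interaction. The floor and the filter moved the treatment counts furthest, and spike-in scaling that of sham cells at 24 h.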
